A study of Mus musculus with 4 samples.

Results

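The mevalonate pathway turns acetyl-CoA into the isoprenoid units from which cells build squalene, and from it cholesterol. Its side branches supply the lipid tails of prenylated proteins, dolichol and ubiquinone. The enzymes work in the cytosol, at the endoplasmic reticulum (ER) membrane and in peroxisomes, and many of their genes are targets of SREBP-2, a transcription factor that is released from the ER when sterol is scarce. The brain makes nearly all of its own cholesterol, and in the weeks after birth much of it goes into myelin.

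The 9 genes considered here were listed in pathway order: Acat2, Hmgcs1, Mvk, Pmvk, Mvd, Idi1, Fdps, Fdft1 and Ggps1. Members were the non-control array probes whose RefSeq accession maps to one of these genes, whatever their signal. The rule found 15 probes for 8 of the 9 genes, out of 32994 probes named for 22911 genes. Acat2, which joins 2 molecules of acetyl-CoA in the first step, had 0 probes under this rule, so its level is not given here. Mvk, Pmvk and Fdft1 had 2 probes each, Ggps1 had 5, and the other 4 genes had 1. All 15 probes were well above background on all 4 arrays, and none had a spot where the local background of an array was raised.

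RNA was taken from the cerebellum of C57BL/6 mice at postnatal day 28 and hybridised to 4 one-colour Agilent arrays. The 2 control mice were Derlin-2flox/flox, and the labels name no Cre in them. The 2 knockout (KO) mice were bred from Derl2flox/flox mice and a line in which the nestin promoter drives Cre recombinase. That promoter works in neural precursors, so cells of other origins would keep Derl2. Derl2 encodes Derlin-2, an ER membrane protein that takes part in the removal of misfolded proteins. The presence of Cre and the loss of Derl2 cannot be told apart here, nor can group and position on the slide, which held the controls at positions 1 and 2 and the KO samples at positions 3 and 4. Levels are log2 signal relative to the 75th percentile of the same array, and a difference is KO minus control on that scale. Levels of different genes were not compared with each other. Probe levels served to pick the brightest probe of a gene, and were summed over cell type markers within each array.

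Derl2 itself was read first. Its brighter probe read 2.13 and 2.20 in control against 0.81 and 0.70 in KO, a difference of −1.41 (SE 0.107; limma adjusted p 0.273), and on its other probe the difference was −1.73 (SE 0.104; limma adjusted p 0.273). Of the marker genes of cerebellar neurons, 8 of 8 for Purkinje cells and 8 of 8 for granule cells passed the filter on dim probes. The same filter passed 16524 of all 22911 named genes. It also passed 12 of 12 oligodendrocyte, 10 of 10 microglia and 8 of 8 choroid plexus markers, so passing does not set these neurons apart. Over the 37516 probes tested, 0 passed a limma adjusted p of 0.05, and 5265 (14.0%) had an unadjusted p under that value. Only 2 arrays per group were measured, which sets the precision of all values. The labels do not say whether replicates were litter mates, and the p-values measure only the spread between these samples.

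In the mevalonate pathway, the levels in KO lay close to those in control. No member probe passed the test, under either the adjusted p (0 of 15; 0% of all probes) or the unadjusted p (0 of 15; 14.0% of all probes). The 15 differences ran from −0.19 to 0.21, with 8 above 0 and 7 below (45.2% of all probes were above 0), and their median was 0.0060, against −0.028 over all probes tested. The median size of the difference, without its sign, was 0.069 for the member probes and 0.164 over all probes, which include probes of no named gene. On the brightest probe of each gene, the median size was 0.071 for the 8 member genes tested and 0.136 over all named genes. Of the member probes, 5 of 15 (33.3%) had groups that did not overlap, while 49.3% of all probes did. Of these 5, 2 were higher in KO (22.5% of all probes) and 3 lower (26.9% of all probes). A difference of at least 1.5-fold was seen in 0 of 15 member probes and in 6.83% of all probes. The 95% interval of the fit included 0 for all 15 probes and excluded a 1.5-fold change in either direction for 14 of them, the exception being Idi1.

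**Figure D1:**
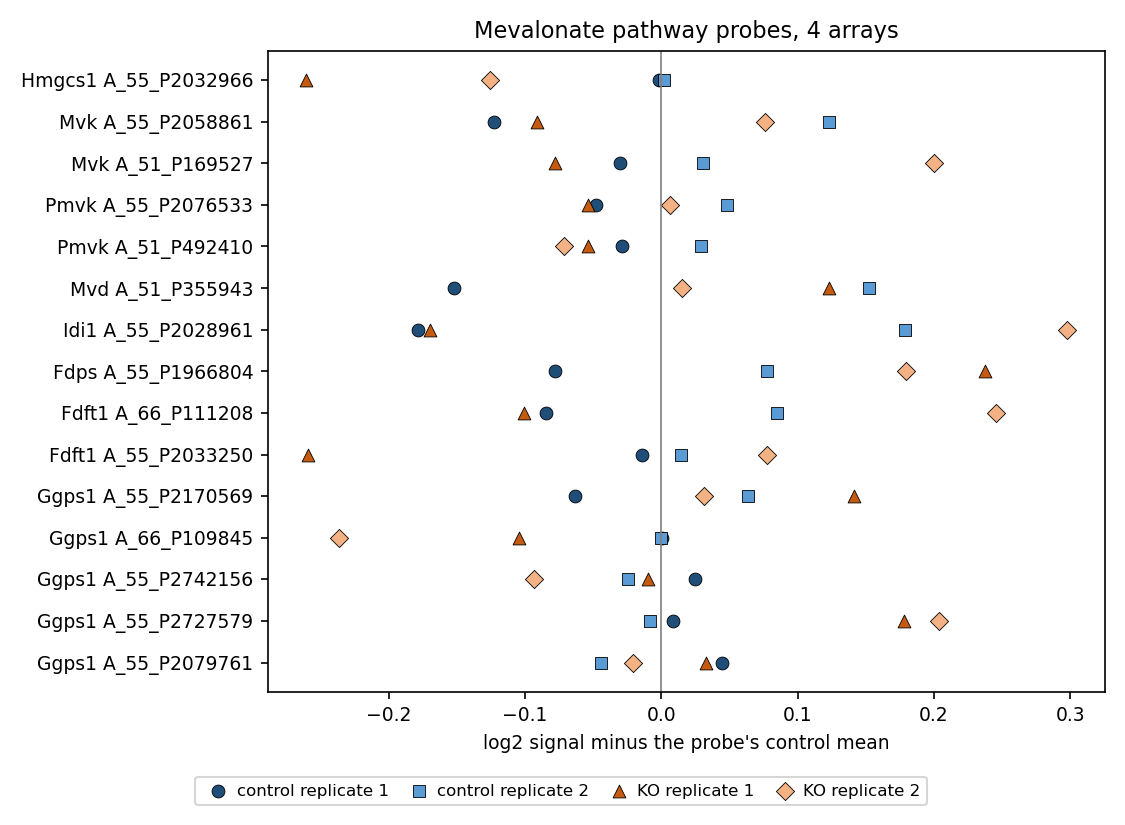
Log2 signal of each mevalonate pathway probe on each of the 4 arrays, less that probe's mean in the controls, in pathway order from top to bottom. Points are single arrays. The KO arrays stand on one side of both control arrays for 5 of 15 probes (49.3% of all probes tested), among them Hmgcs1 and Fdps. Idi1 has its replicates far apart in both groups.

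Short stretches upstream of 3 members are shown because SREBP-2 acts at promoters of this pathway, often beside NF-Y, which binds CCAAT boxes. Hmgcs1 was chosen as the member with the lowest difference, Idi1 as the one with the widest gap between replicates, and Mvk for its number of CCAAT matches. The sequences are from RefSeq, build GRCm38.p6, 5′ to 3′ on the strand of the gene. They lie within the 250 bases before the annotated start. Capitals mark CCAAT (or ATTGG on the other strand) and the sterol regulatory element letters TCACNCCAC on either strand.
Hmgcs1, chr13:119690102-119690322, plus strand: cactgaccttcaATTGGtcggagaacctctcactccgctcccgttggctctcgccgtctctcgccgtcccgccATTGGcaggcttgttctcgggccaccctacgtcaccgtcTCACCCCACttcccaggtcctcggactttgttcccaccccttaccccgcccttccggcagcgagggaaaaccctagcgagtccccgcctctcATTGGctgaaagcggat
Mvk, chr5:114444084-114444268, plus strand: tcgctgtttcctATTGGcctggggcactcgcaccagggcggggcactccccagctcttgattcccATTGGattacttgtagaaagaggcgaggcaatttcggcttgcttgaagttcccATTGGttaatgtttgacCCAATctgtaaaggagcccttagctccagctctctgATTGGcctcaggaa
Idi1, chr13:8885549-8885605, plus strand: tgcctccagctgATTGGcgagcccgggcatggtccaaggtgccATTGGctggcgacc

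The Hmgcs1 stretch holds 3 CCAAT matches and 1 sterol regulatory element match, which begins 137 bases before the start and overlaps no CCAAT match. The Mvk stretch holds 5 CCAAT matches and that of Idi1 holds 2. The promoter table holds 8 windows of 250 bases for 7 of the 9 listed genes, Acat2 among them. Of these windows 6 held a CCAAT match, all but that of Acat2 and one of Pmvk, against 33.8% of the windows of all 32851 promoters. The sterol regulatory element letters were found in 1 of the 8 windows and in 1.05% of all. The ER stress response element, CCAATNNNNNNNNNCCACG, was in 0 of the 8 and in 0.113% of all. Fdps and Fdft1 are not in the promoter table. These matches describe letters only.

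Hmgcs1 encodes the cytosolic synthase that condenses acetyl-CoA with acetoacetyl-CoA into HMG-CoA, which is then reduced to mevalonate. It read 5.04 on both control arrays against 4.78 and 4.92 in KO, so both KO arrays lay below both controls. The control mean was 5.04 ± 0.0023 (SD, n = 2), and the KO mean was 4.85 ± 0.095 (SD, n = 2). The difference of −0.19 (SE 0.107; limma p 0.139, adjusted p 0.473) puts KO at 87.5% of control, with a 95% interval from 71.7% to 106.8%. This was the lowest of the member differences, and 57.1% of all probes tested had a smaller one by size. It kept its sign under all 15 alternatives, and was −0.126 without KO replicate 1 and −0.111 under spike-in scaling. As the groups did not overlap, leaving out 1 array could not change that sign. Other filters, variance models and a replicate block leave the difference itself as it is.

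Mvk and Pmvk encode the kinases that add the first and the second phosphate to mevalonate. The brighter Mvk probe read 3.08 and 3.32 in control and 3.11 and 3.28 in KO. The KO values lay between the control values, and the difference was −0.0078 (SE 0.140; limma adjusted p 0.985). The dimmer Mvk probe, listed for the other transcript accession NM_023556, read −1.80 and −1.74 in control and −1.85 and −1.57 in KO, with a difference of 0.061 (SE 0.137). Its KO arrays lay on either side of the controls. The brighter Pmvk probe read 3.92 and 4.01 in control and 3.91 and 3.97 in KO, a difference of −0.024 (SE 0.104). The other Pmvk probe read 2.84 and 2.89 against 2.81 and 2.79. There the groups did not overlap, but the difference of −0.062 (SE 0.099; limma adjusted p 0.792) was close to the gap of 0.058 between the controls. Under quantile and spike-in scaling the brighter Mvk and Pmvk probes changed sign, as did the dimmer Pmvk probe under spike-in scaling, so no direction is given for these genes.

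Mvd encodes the decarboxylase that forms isopentenyl diphosphate, and Idi1 the isomerase that turns this unit into dimethylallyl diphosphate. The Mvd level was 0.65 and 0.95 in control and 0.92 and 0.81 in KO. The controls were further apart than the group means, which differed by 0.069 (SE 0.146; limma adjusted p 0.846). Idi1 read 2.57 and 2.92 in control and 2.57 and 3.04 in KO. In each group 1 array was low and the other high, so the groups overlapped almost completely. The control mean of Idi1 was 2.74 ± 0.253 (SD, n = 2), the KO mean was 2.81 ± 0.33 (SD, n = 2), and the difference was 0.064 (SE 0.222; limma adjusted p 0.909). The 95% interval for the KO level, 69.2% to 158.0% of control, is the widest of the members. The within-group SD of Idi1 lay above that of 85.6% of all probes tested. Leaving out KO replicate 2 moved its difference to −0.17, and leaving out KO replicate 1 moved it to 0.297.

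Fdps encodes farnesyl diphosphate synthase, whose product stands at the branch between sterols and the other isoprenoids. The Fdps level was 3.42 and 3.58 in control and 3.74 and 3.68 in KO, so both KO arrays lay above both controls. The control mean was 3.50 ± 0.110 (SD, n = 2), and the KO mean was 3.71 ± 0.041 (SD, n = 2). The difference of 0.21 (SE 0.112; limma p 0.130, adjusted p 0.462) was the highest among the members and puts KO at 115.6% of control, with a 95% interval from 93.8% to 142.3%. It kept its sign under all 15 alternatives, from 0.131 to 0.29. Here too, the fits with 1 array left out and those with other filters, variance models or a replicate block could not change the sign. With all 4 arrays, its limma adjusted p ran from 0.307 to 0.713.

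Fdft1 encodes squalene synthase, the first step committed to sterols. Its brighter probe read 2.94 and 3.11 in control and 2.92 and 3.27 in KO, a difference of 0.072 (SE 0.162; limma adjusted p 0.856). Its dimmer probe read 1.27 and 1.30 in control and 1.02 and 1.36 in KO, a difference of −0.091 (SE 0.150; limma adjusted p 0.80). On both probes KO replicate 1 was the lowest array and KO replicate 2 the highest, with gaps of 0.346 and 0.337 between them. The probes of Fdft1 thus gave opposite signs for the groups and the same order of the arrays. Leaving out KO replicate 2 moved the brighter probe to −0.101.

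Ggps1 encodes geranylgeranyl diphosphate synthase, on the branch that feeds the prenylation of small GTPases such as the Rab proteins. Its 5 probes did not share a direction. The brightest, A_55_P2170569, read 2.56 and 2.68 in control and 2.76 and 2.65 in KO, with overlapping groups and a difference of 0.087 (SE 0.112; limma adjusted p 0.742). A_66_P109845 read 2.56 and 2.55 in control and 2.45 and 2.32 in KO, so both KO arrays were lower, with a difference of −0.17 (SE 0.106; limma adjusted p 0.513). A_55_P2727579 read 0.90 and 0.88 in control and 1.07 and 1.096 in KO, so both KO arrays were higher, with a difference of 0.19 (SE 0.097; limma adjusted p 0.447). These last 2 probes are listed for the same predicted transcript, XM_011244281. The remaining 2 probes differed by −0.052, which turned to 0.030 under spike-in scaling, and by 0.0060, with overlapping groups. Among the 4 member genes with more than 1 probe, 3 had probes of opposite sign.

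**Figure D2:**
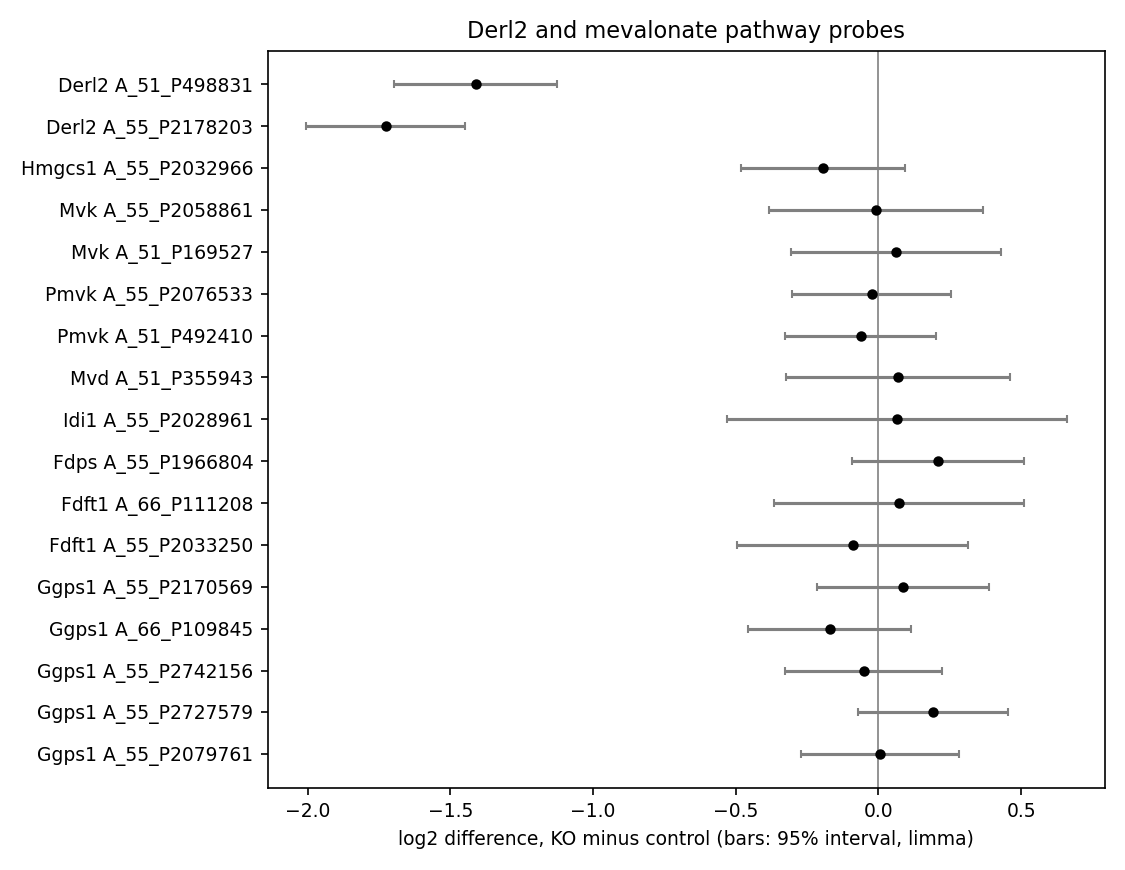
Log2 difference, KO minus control, for the 2 Derl2 probes and the 15 mevalonate pathway probes; points are estimates and bars are 95% intervals of the limma fit over all probes. The Derl2 probes lie at −1.41 and −1.73, and every member interval includes 0.

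For most members, as for most named genes, the replicates of a group differed more than the groups did. On the brightest probe of each gene, the difference between groups exceeded the gap between replicates in both groups for 2 of 8 genes, Hmgcs1 and Fdps (25.0%). The same held for 32.7% of the 16524 named genes tested. Control replicate 2 was above control replicate 1 for 8 of 8 member genes, with a median gap of 0.163, where over all named genes 52.0% were above and the median gap was 0.0081. KO replicate 2 was above KO replicate 1 for 5 of 8, with a median gap of 0.098 against −0.0024 over all named genes. Over all 15 member probes, control replicate 2 was the higher for 11 of 15, with a median gap of 0.061, and KO replicate 2 for 8 of 15, with a median gap of 0.026. Idi1 had the widest gaps, 0.358 in control and 0.467 in KO. Mvd, Fdps and Ggps1 had gaps of opposite sign in the 2 groups. Replicate numbers do not pair a control with a KO mouse in the labels.

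**Figure D3:**
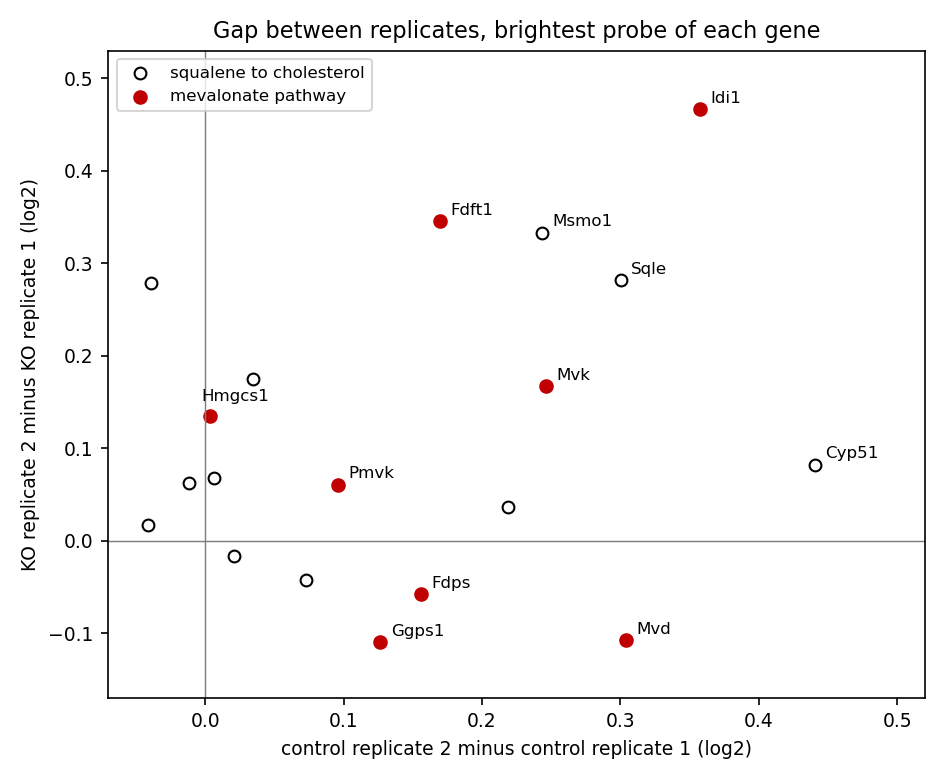
Gap between the replicates of the control group (x axis) and of the KO group (y axis), in log2 units, for the brightest probe of each mevalonate pathway gene (filled) and each squalene-to-cholesterol gene (open). All 8 mevalonate pathway genes lie at or right of 0 on the x axis, and Idi1 lies farthest from 0 on both axes among them. Of the 11 squalene-to-cholesterol genes, 8 lie right of 0 on the x axis.

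Cell type markers differed between arrays too. Summed over the 12 oligodendrocyte and myelin genes, the signal in multiples of the 75th percentile was 478 and 454 in control and 404 and 453 in KO, and 1 of the 12 genes was higher in KO, with a median difference of −0.32. KO replicate 1 was the lowest array for this sum. Choroid plexus markers summed to 140.3 on control replicate 2 and to between 7.48 and 7.93 on the other arrays, and red blood cell markers summed to 346 there and to between 231 and 235 elsewhere. Of 10 astrocyte and Bergmann glia genes 3 were higher in KO, and of 10 microglia genes 0 were. Of 8 Purkinje cell genes 2 were higher, and of 8 granule cell genes 2 were. Beside these counts, 36.1% of all named genes were higher in KO, with a median difference of −0.064. The part of these cell types in the member values was not tested. In bulk RNA, fewer cells of a type and less RNA per cell cannot be told apart.

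The genes around the pathway were described on the brightest probe of each gene. Over all 16524 named genes, 3.16% had an unadjusted p under 0.05 and were higher in KO, 5.65% had one and were lower, and the median difference was −0.064. The 8 mevalonate pathway genes had a median of 0.066, with 5 of 8 higher in KO, where 36.1% of all named genes were. Without control replicate 1 this median was −0.077 and without KO replicate 2 it was −0.073, so its sign rests on those arrays. The mean over a gene's probes gave a median of 0.019. Under spike-in scaling the median was 0.149 with 7 of 8 higher, where 54.1% of all named genes were and their median was 0.018. Under quantile normalization it was 0.108 with 7 of 8 higher, where 44.1% of all named genes were.

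The 11 enzymes from squalene to cholesterol had a median of −0.058, with 4 higher and 7 lower (36.1% of all named genes were higher). Of the 11, 0 had an unadjusted p under 0.05. Sc5d, the desaturase of a late step, read 2.91 and 2.86 in control and 2.72 and 2.74 in KO, a difference of −0.15 (SE 0.098; limma adjusted p 0.519). Dhcr7, the last enzyme of the Kandutsch-Russell branch, differed by −0.15 (SE 0.122), and Lss, which closes the sterol rings, by 0.11 (SE 0.099). Sqle, the squalene epoxidase, had a gap of 0.30 between the controls and 0.282 between the KO arrays, wider than its difference of −0.11. Without control replicate 2 the difference of Dhcr7 was −0.040, and without control replicate 1 it was −0.259. Under spike-in scaling the median of the 11 enzymes was 0.024, with 8 higher, where 54.1% of all named genes were.

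Of the 9 sterol control genes, 2 had an unadjusted p under 0.05, both higher in KO, and 0 passed the adjusted threshold. Srebf2, which encodes SREBP-2, read −1.23 and −1.10 in control and −0.79 and −0.67 in KO, a difference of 0.44 (SE 0.114; limma p 0.0152, adjusted p 0.286). Stard4, a carrier of cholesterol between membranes, read 0.88 and 0.90 in control and 1.27 and 1.46 in KO, a difference of 0.47 (SE 0.116; limma p 0.0124, adjusted p 0.282). A dimmer Stard4 probe differed by 0.016, with overlapping groups. Scap, the escort protein of SREBP, differed by −0.145 (SE 0.116), by −0.052 without KO replicate 2 and by −0.237 without KO replicate 1. The list's median was −0.095, with 3 higher and 6 lower, where 36.1% of all named genes were higher.

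Among the 12 genes that use isoprenoids, 1 had an unadjusted p under 0.05. Pdss1, a subunit of the synthase of the ubiquinone tail, read 0.47 and 0.43 in control and 0.89 and 0.69 in KO, a difference of 0.34 (SE 0.118; limma p 0.0401, adjusted p 0.340). Pdss2, the other subunit, went the other way, by −0.10 (SE 0.180) on its brighter probe, with overlapping groups. On its dimmer probe it differed by −0.27 (SE 0.101; limma p 0.0497, adjusted p 0.355), and both KO arrays lay below both controls. Rabggta, a subunit of the Rab prenyltransferase, differed by −0.24 (SE 0.133), and Trit1, which isopentenylates tRNA, by 0.12 (SE 0.10). Without KO replicate 2 the difference of Rabggta was −0.110, and without KO replicate 1 it was −0.365. The median of the list was −0.069, with 4 higher and 8 lower, where 36.1% of all named genes were higher.

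Of the 4 genes of acetyl-CoA supply, 1 was higher and 3 were lower in KO, where 36.1% of all named genes were higher. Of these 4, 0 had an unadjusted p under 0.05. Slc25a1, the mitochondrial citrate carrier, read 1.68 and 1.47 in control and 1.18 and 1.38 in KO, a difference of −0.29 (SE 0.139; limma adjusted p 0.422). Cs, citrate synthase, differed by −0.13 (SE 0.114) and Acss2, an acetyl-CoA synthetase, by −0.088 (SE 0.130). With 1 array left out, Slc25a1 came to −0.187 without control replicate 1 and −0.194 without KO replicate 1. Cs came to −0.043 without KO replicate 2 and −0.219 without KO replicate 1, and Acss2 turned to 0.037 without KO replicate 1.

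Paralogues of the members were read as well. Acat1, the mitochondrial thiolase, differed by −0.17 (SE 0.133), and Acat3, a neighbour and close relative of Acat2, by −0.048 (SE 0.106) on its brighter probe. Acat1 came to −0.065 without KO replicate 1, −0.081 without control replicate 2 and −0.270 without KO replicate 2, and Acat3 turned to 0.014 without control replicate 1. The 3 probes of Idi2, the relative of Idi1, were not well above background on any array.

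**Figure D4:**
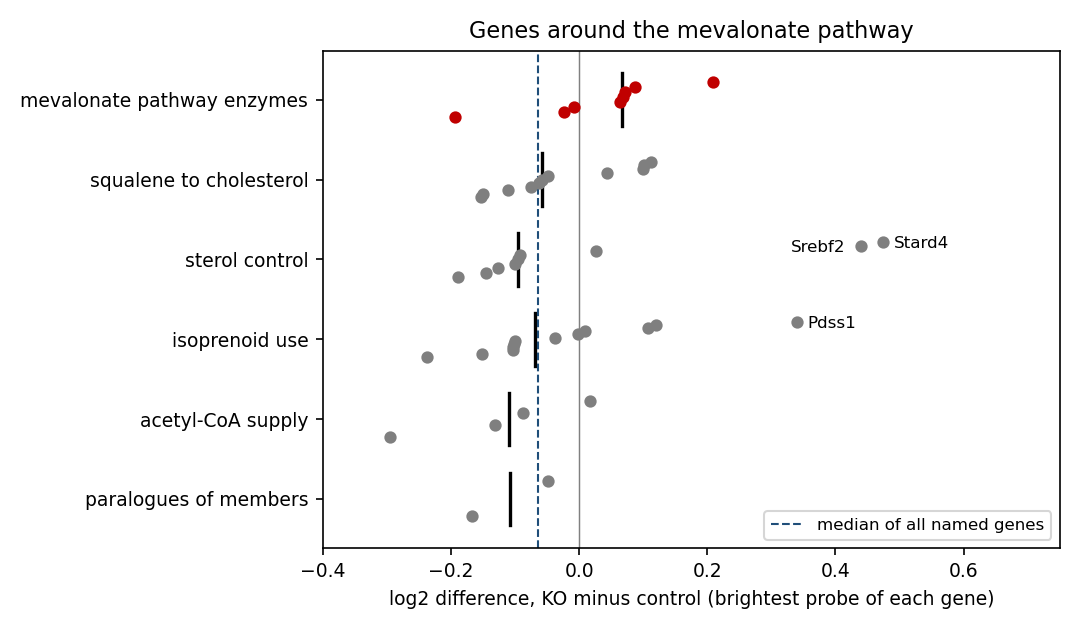
Log2 difference, KO minus control, on the brightest probe of each gene, for the mevalonate pathway and 5 neighbouring lists; points are genes, black bars are list medians and the dashed line is the median of all named genes (−0.064). The mevalonate pathway genes lie between −0.19 and 0.21, while Srebf2 (0.44), Stard4 (0.47) and Pdss1 (0.34) lie to the right.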

How the data were processed

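Per the file headers, version 12.1.1.1 of Agilent Feature Extraction wrote the deposited scanner files. Cy3-labelled RNA was prepared from 150 ng per sample, per the labels' protocols. The processed signal in the deposited files is a linear intensity from which the software had subtracted background within each array. Flags for control, saturated and outlier spots and for spots well above background are other values in the deposited files. The authors' series table holds log2 values, centred per probe.

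Control and outlier spots were left out, log2 processed signals of one probe were averaged, less the array's 75th percentile. Probes well above background on both arrays of a group were kept (37516). Accessions were named through a RefSeq table of GRCm38.p6, which named 91.9% of 35886 RefSeq probes. KO and control, 2 arrays each by title, were compared with limma 3.58.1 in R 4.3.3 (two-sided, no covariates, Benjamini-Hochberg over all kept probes, 4.35 degrees of freedom), tested on simulated data. The members and gene lists were chosen with earlier results of these data known. Named genes were all members, Derl2, the paralogues (1 is not reported here) and the 3 genes with the smallest p of each neighbouring list. Sqle and Pdss2 were chosen after their values were seen. Alternatives were other scalings, background correction, filters, spot flags, variance models, the authors' log2 values, a replicate block and each array left out.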

Additional observations from a re-analysis of the deposited data

How the results depend on the processing

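No member probe passed the adjusted threshold under any of the 15 alternatives. Of 225 member probe values, 203 kept their sign and 22 changed it. Part of the 203 could not change sign, because other filters, variance models and the replicate block leave each difference as it is. For probes whose groups did not overlap, leaving out an array could not change the sign either. The count of 203 is therefore not a measure of how stable the signs were. With spike-in scaling the difference became 0.074 for Mvk A_55_P2058861, 0.058 and 0.020 for Pmvk A_55_P2076533 and A_51_P492410, 0.030 for Ggps1 A_55_P2742156 and 0.034 for Acat3. With quantile normalization it was 0.046 for that Mvk probe and 0.033 for Pmvk A_55_P2076533. With normexp it was 0.023 for that Mvk probe, −0.029 for Mvk A_51_P169527 and −0.0033 for Ggps1 A_55_P2079761. Scalings shifted the median over all probes by 0.082 or less.

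With 1 array left out, differences ran from −0.131 to 0.115 for Mvk A_55_P2058861, −0.078 to 0.200 for Mvk A_51_P169527, −0.083 to 0.221 for Mvd, −0.17 to 0.297 for Idi1, −0.259 to 0.078 for Fdft1 A_55_P2033250, −0.101 to 0.245 for Fdft1 A_66_P111208, and −0.072 to 0.024 for Pmvk A_55_P2076533, −0.038 to 0.050 for Ggps1 A_55_P2079761, −0.212 to 0.037 for Acss2 and −0.110 to 0.014 for Acat3. List medians then ran from −0.077 to 0.154 for the members, −0.129 to 0.054 for sterol control, −0.062 to 0.0068 for isoprenoid use and −0.146 to 0.039 for squalene to cholesterol. The cause was not tested. A lone array is assumed to vary like the other group.

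The count over all probes, 0, became 1 under spike-in scaling, under quantile normalization, with patch spots left out and with the median of bright probes as the scale, 2 under normexp and 4 under an intensity trend with robust variances, and ran from 0 to 98 with an array left out, the 98 without control replicate 2. Under the intensity trend, Derl2 passed on both probes (−1.41 and −1.73, adjusted p 0.0166), and under normexp on the dimmer one (−1.57). The replicate block left 0 calls and all differences as they were. The deviations of same-numbered arrays correlated at 0.124 over probes, which with 2 arrays per group cannot tell whether the mice were paired. With 1 array left out, the member median moved by more than the spread between replicates, and changed sign, without control replicate 1 (−0.077) and without KO replicate 2 (−0.073). Sterol control moved so without KO replicate 1 (0.054). Isoprenoid use moved so without control replicate 1 (−0.031), KO replicate 1 (0.0068) and KO replicate 2 (−0.0084). With all 4 arrays, medians that moved by more than that spread were sterol control under spike-in scaling (−0.013), isoprenoid use under quantile normalization (−0.028), spike-in scaling (0.013), normexp (−0.031) and the mean over a gene's probes (−0.085), acetyl-CoA supply under spike-in scaling (−0.027) and that mean (−0.155), and the paralogues under spike-in scaling (−0.026). Within that spread, the member median was 0.149 under spike-in scaling and 0.108 under quantile normalization, that of squalene to cholesterol was 0.024 and −0.010, and that of sterol control was −0.047 under quantile normalization. Normexp used the median spot intensity.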
